A study of Mus musculus with 8 samples.

Results

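Immune and blood cell identity genes are 35 mouse genes whose products mark or run the cells of the blood: 16 lymphoid genes, 9 myeloid genes and 10 genes shared by many leukocytes or by blood progenitors. They were chosen by name out of 20497 named genes, with earlier results of these data known. Each was given the listed H3K27me3 regions that overlap its RefSeq span or the 2 kb to either side of it. The data came from mouse 3T3 cells, an immortalised fibroblast line, that carried a control construct or a construct for overexpression of NNMT. NNMT, nicotinamide N-methyltransferase, spends S-adenosylmethionine, from which histone methyltransferases draw their methyl groups too, and the study asks how the constructs differ in this mark. Each construct had 3 H3K27me3 libraries, called biological replicates in the series' design text, and 1 input library. All cells, control and NNMT alike, were kept for 48 h in methionine-free DMEM brought to 10 µM methionine with 10% dialyzed FBS, fixed in 1% formaldehyde and digested with micrococcal nuclease, and the antibody was clone C36B11. The promoter and vector of the constructs, and whether each line was a clone or a pool, are not given in the sources used.

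H3K27me3, trimethylation of lysine 27 on histone H3, is written by Polycomb repressive complex 2. It is found on many genes that a cell type keeps silent, above all on regulators of other lineages. Fibroblasts do not make T cell receptors, B cell coreceptors or macrophage integrins, so genes of this kind may carry the mark in such cells, though not every silent gene does. RNA was not measured here, so silence of the 35 genes in these cells could not be checked, and the names of the 3 groups order the genes and say nothing of the cells.

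The authors' deposited table lists 265968 regions that differ between 2 sets of 3 libraries, and it does not say which set is NNMT. Set 1 stands for the values listed first and set 2 for those listed second, and no direction below is tied to NNMT. Within a set the libraries correlated over the regions at 0.92 to 0.947, and between the sets at 0.761 to 0.808. Values summed over all regions ran from 39899303 to 41971892 in the libraries of set 1 and from 35565866 to 36958436 in those of set 2, so that set 1 was 1.14-fold higher over the whole table, a log2 ratio of 0.19. Whether the values were corrected for the inputs is not given, so DNA dosage and the mark cannot be told apart. On the X chromosome 1972 of 1976 regions were higher in set 1, and on the Y chromosome 19 of 19 were higher in set 2. Because the table holds only regions chosen for a difference, and 3 libraries against 3 cannot go below 0.1 in an exact two-sided permutation test, counts are read against those of all genes and no p is given. A gene without a listed region may lack the mark or carry it alike in both sets. The error of a ratio is given as the lowest and highest ratio among the 9 possible pairs of libraries, 1 from each set.

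Of the 35 genes, 26 carried at least 1 listed region, a share of 74.3% against 32.3% of all named genes. Values summed over each gene's regions were higher in set 1 at 19 of the 26 and higher in set 2 at 7, where 69.7% of all genes with a region were higher in set 1. A gene was called separated where the lowest library of one set still exceeded the highest of the other. That held for 17 genes with set 1 higher, against a background of 59.6%, and for 6 genes with set 2 higher, against 22.0%. The sets overlapped at Cd3e, Cd3d and Itgam. The median log2 ratio of set 1 over set 2 was 0.31, beside 0.38 over all genes with a region, and the 26 genes ran from -0.65 at Cd8a to 1.31 at Cd5. These 35 genes thus carried listed regions more often than named genes at large, and the split between the sets stayed near that of all genes. They were chosen with earlier results of these data known, so the higher share describes this list and was not tested on other genes. With the sets rescaled to equal sums over the table, 17 of the 26 remained higher in set 1, against 61.6% of all genes. Then 12 and 7 genes were separated with set 1 and set 2 higher, where the shares over all genes were 46.6% and 30.3%. With each library rescaled, 14 and 7 were, against 47.7% and 31.3%.

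**Figure D1:**
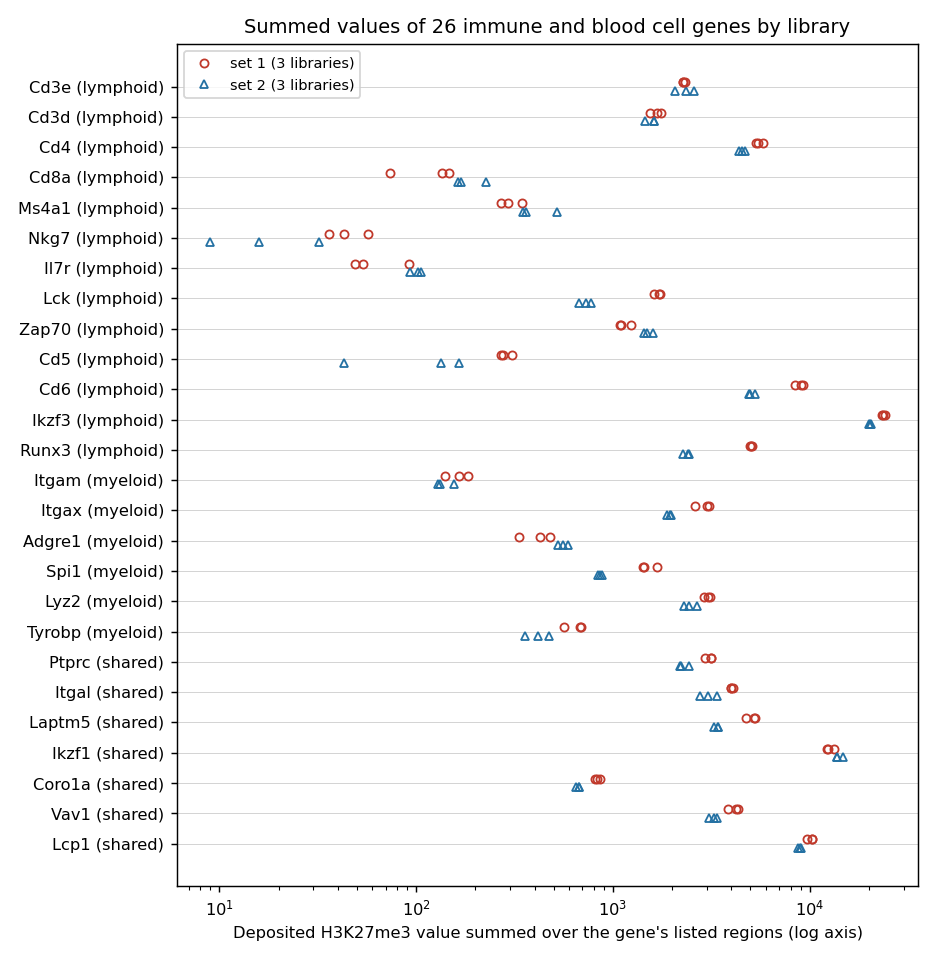
Deposited H3K27me3 value summed over each gene's listed regions (x axis, log scale, no unit given by the authors) for the 26 genes with a region (y axis), where each circle is a library of set 1 and each triangle a library of set 2, 3 of each per gene. Circles lie to the right of all triangles at 17 genes, triangles to the right of all circles at 6, and both mix at Cd3e, Cd3d and Itgam.

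The 26 genes held 372 distinct regions, of which 281 (75.5%) were higher in set 1, against 59.5% of all listed regions, and 91 were higher in set 2. All 3 libraries of set 1 lay above set 2 in 186 of these regions, where the share over the table was 40.5%, and all 3 of set 2 lay above set 1 in 38, where it was 24.7%. Regions of 1 gene are neighbours and are not independent of each other. Their median length was 650 bp, against 450 bp over the table, and the longest measured 13100 bp. At 15 genes regions of both directions lay in the same gene, against 42.7% of all genes with a region. A further 9 genes held only regions higher in set 1 (42.7% of all genes), and 2 genes, Cd8a and Il7r, only regions higher in set 2 (14.7%). Genes with a region were longer, with a median span of 23.7 kb against 9.03 kb for the 9 genes without one, and over all named genes with a region it was 23.1 kb against 16.2 kb without.

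Listed regions reached the transcription start of some of these genes and missed it at others. RefSeq start windows, from 250 bases before to 50 bases after a start on GRCm38.p6, were matched for 24 of the 35 genes and numbered 32, since some genes have several starts. A listed region overlapped 12 of the 32 windows, at 11 genes, against 8.99% of 20013 windows of all named genes. In 8 windows the overlapping regions were higher in set 1, in 3 (Cd3e, Cd8a and the downstream start of Ikzf1) higher in set 2, and in 1 (a start of Zap70) regions of both directions met. Library values of the sets were mixed in the regions at Cd3d, Cd8a and the downstream start of Ikzf1. They were mixed too in the Zap70 region higher in set 2. The windows were poor in CpG: the ratio of observed to expected CpG had a median of 0.277, against 0.6 over all windows. Only 4 windows reached 0.6, and 1 of these carried a region. Of the 28 windows below 0.6, 11 did, where the share over all such windows was 15.5% and over windows at or above 0.6 it was 2.52%.

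**Figure D2:**
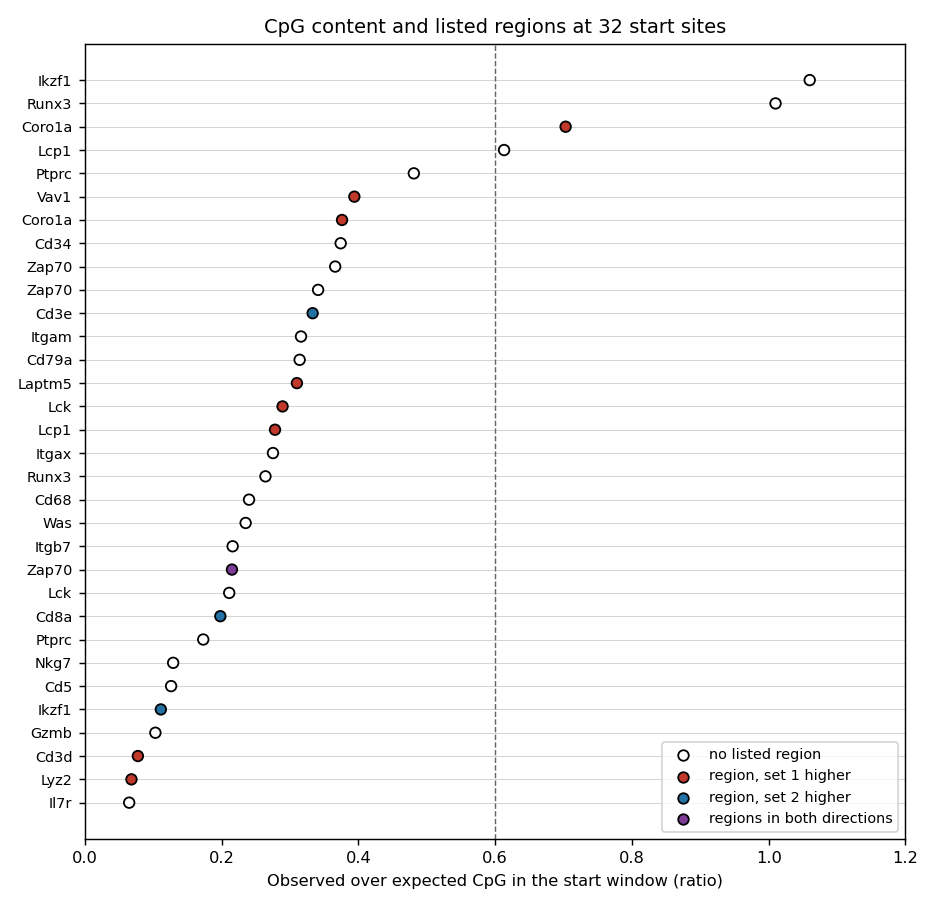
Ratio of observed to expected CpG (x axis) in the 32 start windows of 24 genes (y axis, 1 row per window, ordered by the ratio), filled where a listed region overlaps the window and coloured by the set with the higher values. The dashed line marks 0.6: of the 4 windows to its right 1 is filled, at Coro1a, and of the 28 to its left 11 are filled.

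Start windows of Ikzf1, Laptm5, Lyz2 and Coro1a are shown because they span this range, from a CpG-dense start without a region to CpG-poor starts within long ones. All are RefSeq sequence of GRCm38.p6, written 5′ to 3′ on the gene's strand, with each CG in capitals. Ikzf1 encodes Ikaros, a zinc finger factor of early lymphoid cells, and has 2 of them: the upstream start (chr11:11685675-11685974, plus strand), with 52 CG and a ratio of 1.06, overlapped no listed region, and the downstream start (chr11:11689927-11690226, plus strand), with 2 CG and a ratio of 0.111, overlapped one that was higher in set 2. The start of Laptm5 (chr4:130913066-130913365, plus strand; 9 CG) lay inside a 13.1 kb region higher in set 1. That of Lyz2 (chr10:117282223-117282522, minus strand; 1 CG) lay inside a 6.2 kb region higher in set 1. The upstream Coro1a window (chr7:126704767-126705066, minus strand, 19 CG) had a ratio of 0.703 and overlapped a 2.35 kb region higher in set 1. Its downstream window, not shown, had a ratio of 0.376.
Ikzf1 upstream start: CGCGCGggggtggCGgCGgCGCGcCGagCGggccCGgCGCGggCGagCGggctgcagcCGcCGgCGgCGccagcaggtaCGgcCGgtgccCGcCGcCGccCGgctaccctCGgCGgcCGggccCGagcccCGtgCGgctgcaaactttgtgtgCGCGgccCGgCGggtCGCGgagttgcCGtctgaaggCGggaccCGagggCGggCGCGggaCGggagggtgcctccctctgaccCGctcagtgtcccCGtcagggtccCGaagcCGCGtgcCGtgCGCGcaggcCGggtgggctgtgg
Ikzf1 downstream start: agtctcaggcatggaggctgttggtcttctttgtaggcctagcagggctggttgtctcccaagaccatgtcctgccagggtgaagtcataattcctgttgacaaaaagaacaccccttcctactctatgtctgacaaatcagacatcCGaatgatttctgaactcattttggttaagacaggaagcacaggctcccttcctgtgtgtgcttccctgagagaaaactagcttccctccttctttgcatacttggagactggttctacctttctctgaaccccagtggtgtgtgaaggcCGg
Laptm5 start: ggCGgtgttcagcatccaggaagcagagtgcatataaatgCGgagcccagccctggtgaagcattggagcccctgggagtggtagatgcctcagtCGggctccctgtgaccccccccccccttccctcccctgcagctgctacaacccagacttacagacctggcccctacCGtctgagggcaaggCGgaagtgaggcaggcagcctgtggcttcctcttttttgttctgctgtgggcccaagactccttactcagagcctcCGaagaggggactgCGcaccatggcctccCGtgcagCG
Lyz2 start: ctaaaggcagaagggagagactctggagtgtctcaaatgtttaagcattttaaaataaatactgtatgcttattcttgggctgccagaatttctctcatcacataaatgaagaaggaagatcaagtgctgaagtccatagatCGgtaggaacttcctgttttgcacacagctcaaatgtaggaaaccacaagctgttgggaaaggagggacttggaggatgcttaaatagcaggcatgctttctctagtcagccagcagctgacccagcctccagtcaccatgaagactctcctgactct
Coro1a start: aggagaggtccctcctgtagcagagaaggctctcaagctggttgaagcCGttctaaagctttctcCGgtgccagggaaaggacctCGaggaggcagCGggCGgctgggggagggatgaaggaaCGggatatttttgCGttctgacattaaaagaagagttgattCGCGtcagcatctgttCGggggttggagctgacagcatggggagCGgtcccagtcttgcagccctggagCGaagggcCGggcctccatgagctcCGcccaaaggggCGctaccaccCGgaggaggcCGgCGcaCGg
The sequence GAGGAAGT, a form of the site bound by the myeloid and B cell factor PU.1, was searched in all windows on both strands (reverse complement ACTTCCTC) and was found in 3 of the 32, those of Itgb7, Cd5 and Vav1, and in 3.19% of all windows. A match is a description of these letters and not a bound site.

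Among the 16 lymphoid genes 13 carried regions, and their sums were higher in set 1 at 8 and in set 2 at 5. The share higher in set 1 was 69.7% over all genes with a region. The T cell kinase and T cell factor genes were the clearest on the side of set 1. Lck encodes the Src family kinase that starts T cell receptor signalling, and its 22 regions (gene span chr4:129548344-129573641) summed to 1733, 1725 and 1624 in the libraries of set 1 and to 670, 772 and 734 in those of set 2. The sets lay far apart, at 2.33-fold (2.1 to 2.58 over pairs), and 22 of 22 regions were higher in set 1. The region with the largest sum in Lck, 1.75 kb just inside its 5′ end, held 395, 450 and 360 against 145, 226 and 186. Runx3, a Runt family factor of cytotoxic T cells, showed the same order in 28 of 28 regions, with sums of 5043, 5000 and 5097 in set 1 against 2445, 2276 and 2399 in set 2. These sums differed 2.13-fold (2.04 to 2.24 over pairs), with no overlap. A 10.6 kb region of Runx3 between its starts held 2426, 2487 and 2619 against 1544, 1434 and 1522, a smaller ratio of 1.67.

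Zap70, the kinase recruited to the phosphorylated T cell receptor and next in the pathway after Lck, went the other way. Its 5 regions summed to 1240, 1105 and 1083 in set 1 and to 1495, 1437 and 1591 in set 2. Set 2 was thus 1.32-fold higher (1.16 to 1.47 over pairs) without overlap, and 4 of the 5 regions had this direction. The exception was a 0.5 kb region at an internal start of Zap70, with 102, 96 and 110 against 51, 88 and 93, directly beside a region higher in set 2.

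The CD3 chains, invariant parts of the T cell receptor complex, lie next to each other on chromosome 9 and showed mixed regions. Cd3e summed to 2273, 2319 and 2265 in set 1 and to 2353, 2594 and 2059 in set 2, and the sets overlapped, at a log2 ratio of -0.03 that became 0.05 without the second listed library of set 2. Within Cd3e, a 4.0 kb region overlapped between the sets (1100, 1054 and 1062 against 945, 1126 and 813), whereas a 1.8 kb region at the 3′ end did not (325, 409 and 420 against 483, 544 and 505). Cd3d summed to 1684, 1749 and 1541 against 1614, 1621 and 1448, again with overlap, and its log2 ratio of 0.09 turned to -0.11 once both sets were scaled to the same total. Of its 8 regions, 3 also fall to the neighbouring chain gene Cd3g.

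The 2 coreceptor genes differed from each other. Cd4, the coreceptor of helper T cells, had listed regions over 64.4% of its span and flanks, with sums of 5465, 5767 and 5354 in set 1 against 4364, 4713 and 4527 in set 2. That is 1.22-fold higher in set 1 (1.14 to 1.32 over pairs), without overlap. The separation was lost when the sets were rescaled and remained when each library was rescaled. The region of Cd4 with the largest sum, 5.7 kb long, held 1725, 1826 and 1809 against 1349, 1522 and 1398. Cd8a, the coreceptor of cytotoxic T cells, had only 2 short regions, which summed to 135, 147 and 74 in set 1 and 226, 163 and 170 in set 2. Set 2 was 1.57-fold higher (1.11 to 3.03 over pairs), and the first of the regions covers the start of Cd8a. The sums of Cd8a are small, and only 1 of its regions reached 500 bp, over which the sets overlapped.

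Cd5 and Cd6 encode related scavenger receptors that damp T cell receptor signals, and both were higher in set 1. Cd6 had dense regions over 81.6% of its span and flanks, and their sums were 9008, 9221 and 8407 in set 1 against 4922, 5273 and 4985 in set 2. The ratio for Cd6 was 1.75 (1.59 to 1.87 over pairs), with no overlap. Its 8.9 kb lead region held 2408, 2386 and 2103 against 1145, 1158 and 1034, while a 0.4 kb region of Cd6 was higher in set 2, at 41, 71 and 44 against 86, 82 and 75. Cd5 carried 7 small regions, all higher in set 1, with sums of 270, 307 and 277 against 166, 43 and 134. This was the largest ratio among the 26 genes, 2.49, and an imprecise one, with pairs from 1.62 to 7.0. With 1 library left out the ratio of Cd5 ran from 1.9 to 3.21. Its first rank depends on the second listed library of set 2, at 43. Without that library the log2 ratio was 0.923 at Cd5 and 1.27 at Lck. The lead region of Cd5 held 98, 137 and 96 against 86, 14 and 33. Its ratio of 2.48 ran from 1.85 to 4.64 with 1 library left out.

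Ikzf3, which encodes Aiolos, an Ikaros family factor of B cells, carried regions over 85.0% of its span and flanks. Its 36 regions summed to 23660, 24071 and 23428 in set 1 and 19988, 20390 and 20266 in set 2. The difference was small, 1.17-fold (1.15 to 1.2 over pairs), but the sets did not overlap, though they did once each library was rescaled to the same sum. Over the listed regions Ikzf3 had 321 and 273 units per kb in set 1 and set 2, the highest level per length among the 26 genes.

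The remaining lymphoid genes had few and small regions. Il7r, the receptor chain for the lymphocyte survival factor interleukin 7, summed to 92, 49 and 54 in set 1 and 102, 93 and 106 in set 2. Its highest set 1 value is just below the lowest of set 2, and the separation was lost with a flank of 5 kb. Ms4a1, which encodes the B cell antigen CD20, was likewise barely separated, at 346, 270 and 294 against 517, 361 and 349, and overlapped when only regions at the authors' p under 0.05 were kept. Nkg7, a granule protein of killer cells, had 3 regions behind its 3′ end that also fall partly to Cldnd2, with sums of 43, 57 and 36 against 9, 32 and 16. Its ratio of 2.36 ran from 1.88 to 3.56 with 1 library left out, and without the flank Nkg7 had no region. Cd79a, a signalling chain of the B cell receptor, Itgb7, an integrin chain of gut-homing lymphocytes, and Gzmb, a killer cell protease, had no listed region. The nearest ones lay 14.3, 128 and 9.17 kb away.

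**Figure D3:**
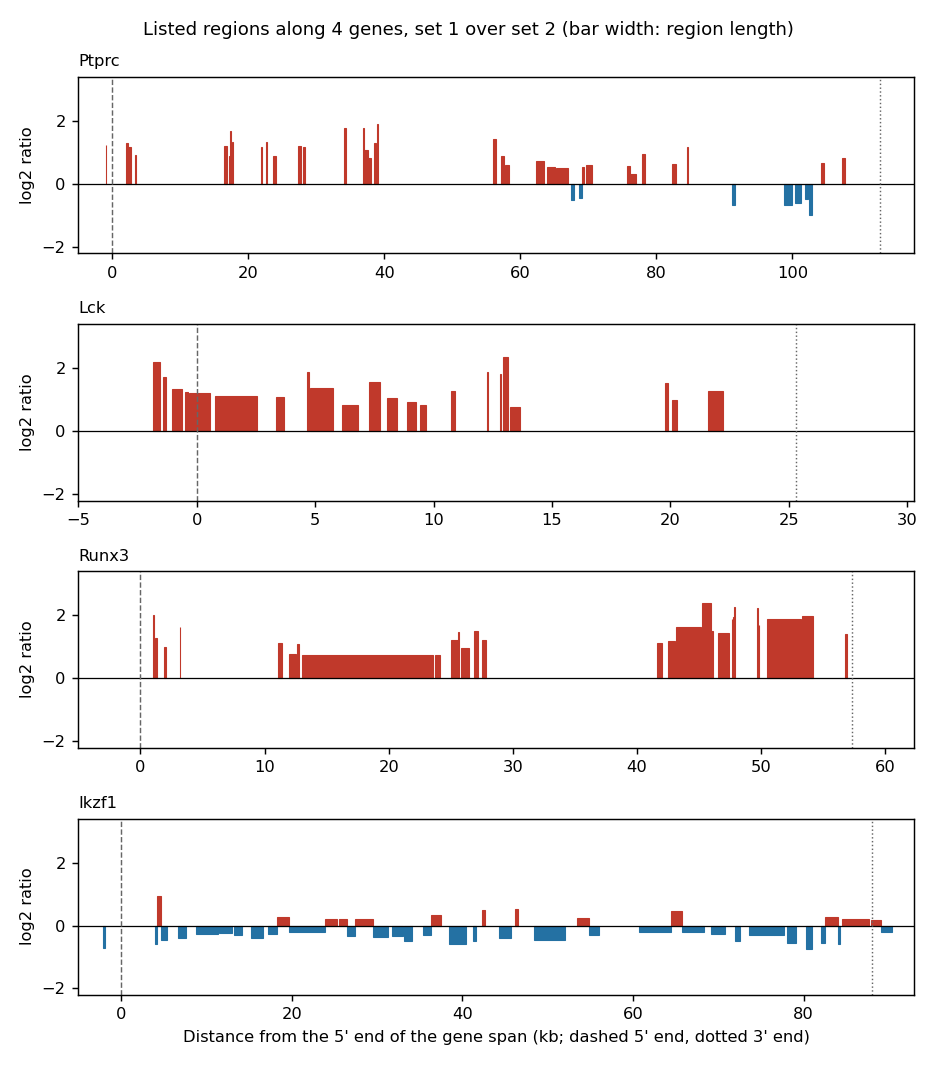
Log2 ratio of set 1 over set 2 (y axis) for each listed region along Ptprc, Lck, Runx3 and Ikzf1, against distance from the gene's 5′ end in kb (x axis), with bar width equal to region length. Lck and Runx3 hold only bars above 0 (22 and 28), Ikzf1 has 31 of 44 bars below 0, and Ptprc has 34 of 41 above 0 with a block below 0 towards its 3′ end.

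Of the 9 myeloid genes 6 carried regions, and 5 of these were higher in set 1, against 69.7% of all genes with a region. Spi1 encodes PU.1, the factor that commits progenitors to the myeloid and B cell lines, and 14 of its 14 regions were higher in set 1. They summed to 1417, 1667 and 1445 in set 1 and to 884, 845 and 865 in set 2. The ratio for Spi1 was 1.75 (1.6 to 1.97 over pairs), without overlap. The region with its largest sum starts beyond one end of the gene, within the flank, and held 403, 519 and 425 against 373, 329 and 323. One Spi1 region also falls to Mybpc3.

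Itgax and Itgam encode the alpha chains of CD11c, of dendritic cells, and CD11b, of macrophages and granulocytes, and stand near each other on chromosome 7. Itgax summed to 3085, 2994 and 2618 in set 1 and 1885, 1966 and 1947 in set 2 over 8 regions, all higher in set 1. It was 1.5-fold higher (1.33 to 1.64 over pairs) with no overlap. Itgam, though longer, had 3 regions over 1.84% of its span and flanks, with overlapping sums of 184, 165 and 141 against 155, 132 and 129. Within Itgam a region of 0.45 kb had 78, 41 and 41 against 101, 72 and 46, and one of 0.35 kb had 54, 75 and 47 against 19, 32 and 49, so neighbouring regions pointed in opposite directions and both overlapped.

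Lyz2, the lysozyme gene of macrophages and granulocytes, was covered almost whole, with regions over 94.7% of its span and flanks. Its sums were 3125, 3045 and 2913 in set 1 against 2675, 2443 and 2288 in set 2, a ratio of 1.23 (1.09 to 1.37 over pairs). The sets did not overlap as deposited and overlapped after rescaling. The 6.2 kb region over the start of Lyz2 shown above held 2097, 2153 and 2016 against 1868, 1659 and 1579, while a 0.95 kb region past its 3′ end was higher in set 2, at 196, 184 and 187 against 262, 218 and 237. Tyrobp, which encodes the adaptor DAP12 of myeloid and killer cell receptors, had 2 regions, with sums of 566, 683 and 685 against 417, 357 and 473. Tyrobp was 1.55-fold higher in set 1 (1.2 to 1.92 over pairs), without overlap.

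Adgre1, which encodes the macrophage antigen F4/80, was the myeloid gene with set 2 higher. Its sums were 424, 480 and 332 in set 1 against 590, 558 and 527 in set 2, without overlap, and set 2 was 1.35-fold higher (1.1 to 1.77 over pairs). Only 2.37% of its span and flanks were covered, by 5 regions, and the one with the largest sum overlapped between the sets, at 133, 216 and 114 against 230, 250 and 199. Csf1r, the receptor of macrophage colony-stimulating factor, Cd68, a lysosomal protein of macrophages, and Cd14, a coreceptor for lipopolysaccharide, had no listed region, the nearest lying 72.8, 35.4 and 82.1 kb away.

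Among the 10 shared genes 7 carried regions, 6 of them higher in set 1, and in none of the 7 did the sums of the sets overlap. Over all genes with a region 69.7% were higher in set 1. Separation with set 1 higher held for 59.6% of them, and with set 2 higher for 22.0%. Ptprc encodes CD45, the phosphatase on the surface of nearly all leukocytes, and its 41 regions summed to 3139, 3167 and 2930 in set 1 and 2189, 2229 and 2435 in set 2. As a whole it was 1.35-fold higher in set 1 (1.2 to 1.45 over pairs). The direction was not uniform along Ptprc. Over the 68.0 kb at the start side, 25 regions in a row were higher in set 1, with sums of 1838, 1802 and 1730 against 888, 908 and 1088, a ratio of 1.86. Over 11.7 kb towards the 3′ end, 5 regions in a row were higher in set 2, with 440, 450 and 387 against 629, 693 and 671, a ratio of 1.56 the other way. The sums of both runs of Ptprc were free of overlap. Runs end where the direction changes, so this is in part built in. Each of the 5 regions in the run with set 2 higher was also free of overlap by itself. The value for the whole gene averages regions of both directions.

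Ikzf1, the Ikaros gene whose 2 starts are shown above, was the shared gene with set 2 higher. Its 44 regions covered 65.8% of the span and flanks and summed to 12443, 13367 and 12259 in set 1 and 13749, 14736 and 13690 in set 2. The difference was only 1.11-fold (1.02 to 1.2 over pairs), with no overlap, and 31 of the 44 regions had this direction. Regions of both directions alternated along Ikzf1. Its 4.2 kb lead region held 881, 1050 and 1005 against 1144, 1143 and 1060, and a 3.1 kb region near the 3′ end had 805, 703 and 821 against 718, 691 and 627, which overlap. The 0.5 kb region just before the downstream start, at 132, 81 and 128 against 63, 56 and 60, had a ratio of 1.9 towards set 1. This region, and the runs described for Ptprc and Lcp1, were chosen after their values were seen.

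Laptm5, a lysosomal membrane protein of blood cells, held the longest region of the 26 genes, 13.1 kb over its start. This region had 3332, 3421 and 3152 in the libraries of set 1 against 2252, 2239 and 2181. The sets did not overlap, at a ratio of 1.48 (1.4 to 1.57 over pairs). Over all 9 regions Laptm5 summed to 5280, 5222 and 4760 against 3426, 3255 and 3425, and 9 of 9 regions were higher in set 1.

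Itgal encodes the alpha chain of LFA-1, the integrin by which leukocytes hold to other cells. It summed to 4084, 3976 and 3981 in set 1 and 3054, 3365 and 2765 in set 2, a ratio of 1.31 (1.18 to 1.48 over pairs). Its partner chain gene Itgb2 had no listed region, with the nearest 53.9 kb away. Genes for the 2 chains of this integrin thus differed in whether any region was listed.

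Coro1a, Vav1 and Lcp1 serve the actin cytoskeleton of leukocytes, and all were modestly higher in set 1. Coro1a, an actin-binding coronin, summed to 833, 864 and 807 against 669, 671 and 647, at 1.26-fold (1.2 to 1.33 over pairs) without overlap. Most of this sum came from a region upstream of the gene span, with 670, 628 and 613 against 564, 555 and 534. The log2 ratio of Coro1a, 0.333, was 0.826 without the flank and 0.215 with a flank of 5 kb. Vav1, a signalling protein of blood cells, summed to 4303, 4230 and 3834 against 3388, 3283 and 3082, at 1.27-fold (1.13 to 1.4 over pairs), and 24 of its 29 regions were higher in set 1. Lcp1, the actin-bundling protein L-plastin, had 41 regions in alternating runs and summed to 10243, 10267 and 9690 against 8765, 9002 and 8916. Its ratio of 1.13 (1.08 to 1.17 over pairs) was just under the shift of the whole table, and the log2 ratio of Lcp1 turned from 0.18 to -0.02 when the sets were rescaled. A run of 13 regions at the 5′ side of Lcp1 was higher in set 1 (4998, 4925 and 4625 against 3950, 3956 and 3864). A later run of 3 was higher in set 2 (697, 772 and 845 against 974, 1149 and 871), but the sets overlapped in each of its regions. After rescaling of the sets, separation was lost at Cd4, Nkg7, Lyz2, Vav1 and Lcp1, and Cd3e became separated with set 2 higher. With each library rescaled instead, it was lost at Ikzf3, Lyz2 and Lcp1, and Cd3e again became separated. Cd34, a surface protein of blood progenitors and endothelium, and Was, an actin regulator on the X chromosome, had no listed region, the nearest lying 219 and 66.5 kb away.

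Large stretches of chromosome differed between the sets in 1 direction, so each gene was set beside the other listed regions within 1 Mb of it. Of the 26 genes 21 had the direction of their neighbourhood, against 78.0% of all genes that could be compared. Within 200 kb 23 did and within 5 Mb 17 did. The share of all genes at these other widths was not computed, so these counts cannot be judged against it. With the sets rescaled to equal sums, 19 of the 26 had the direction of their 1 Mb neighbourhood. No share of all genes was worked out under this rescaling, so that count cannot be judged against one either. Neighbourhoods had set 1 higher at 24 of the 26 genes whatever the gene's own direction, so agreement on that side was likely beforehand. Around Cd3d, Cd5, Cd6, Itgam, Itgax and Coro1a the values were 0.026, 0.192, 0.155, 0.125, 0.045 and 0.055. These are below the log2 ratio of 0.194 over the whole table. All 19 genes with set 1 higher lay in neighbourhoods with set 1 higher. The 3 genes on chromosome 4, where 86.0% of regions were higher in set 1, belong to these: the log2 ratio was 1.22 at Lck with 0.85 around it, 1.09 at Runx3 with 0.78 around it, and 0.60 at Laptm5 with 0.73 around it. Spi1, at 0.80, stood beside 0.69 within 1 Mb and 0.47 within 200 kb. How much of the difference at these genes is that of the wider chromosome was not tested.

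For some genes the comparison depended on how wide a neighbourhood was taken. Itgax, at 0.58, had 0.04 around it within 1 Mb but 0.55 within 200 kb, where 50 of 54 regions were higher in set 1. Cd5, at 1.31, had 0.19 within 1 Mb and 0.70 within 200 kb, and its neighbour Cd6 on chromosome 19, at 0.81, had 0.15 and 0.26. These 2 genes are not independent of each other's surroundings. The 17 regions of Cd6 are among the 54 within 200 kb of Cd5, and those of Cd5 count around Cd6. Of the 7 genes with set 2 higher, Zap70 and Ikzf1 lay in neighbourhoods with set 2 higher, at -0.35 and -0.55. The other 5, Cd3e, Cd8a, Ms4a1, Il7r and Adgre1, lay in 1 Mb neighbourhoods with set 1 higher. Around Cd3e, Cd8a, Ms4a1 and Il7r the values were 0.033, 0.141, 0.173 and 0.144. These are below the log2 ratio of 0.194 over the whole table, so for these genes the contrast depends on that shift. Within 200 kb, however, Ms4a1, at -0.43, had -0.45 around it, with 11 of 74 regions higher in set 1, and Il7r, at -0.62, had -0.63, with 6 of 54. Cd3e, Cd8a and Adgre1 had set 1 higher around them at both widths, though within 200 kb by only 0.007 at Cd3e and 0.04 at Cd8a. Among these 3 the widest gap was at Adgre1, with -0.44 beside 0.47 within 1 Mb, where 237 of 255 regions were higher in set 1, and 0.38 within 200 kb. Its neighbour Vav1 on chromosome 17, at 0.34, is part of that neighbourhood, so its agreement with it is in part built in. Vav1 supplies 29 of the 87 regions within 200 kb of Adgre1. Was, without a region, lies on the X chromosome, where 157 of 157 regions around it were higher in set 1.

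**Figure D4:**
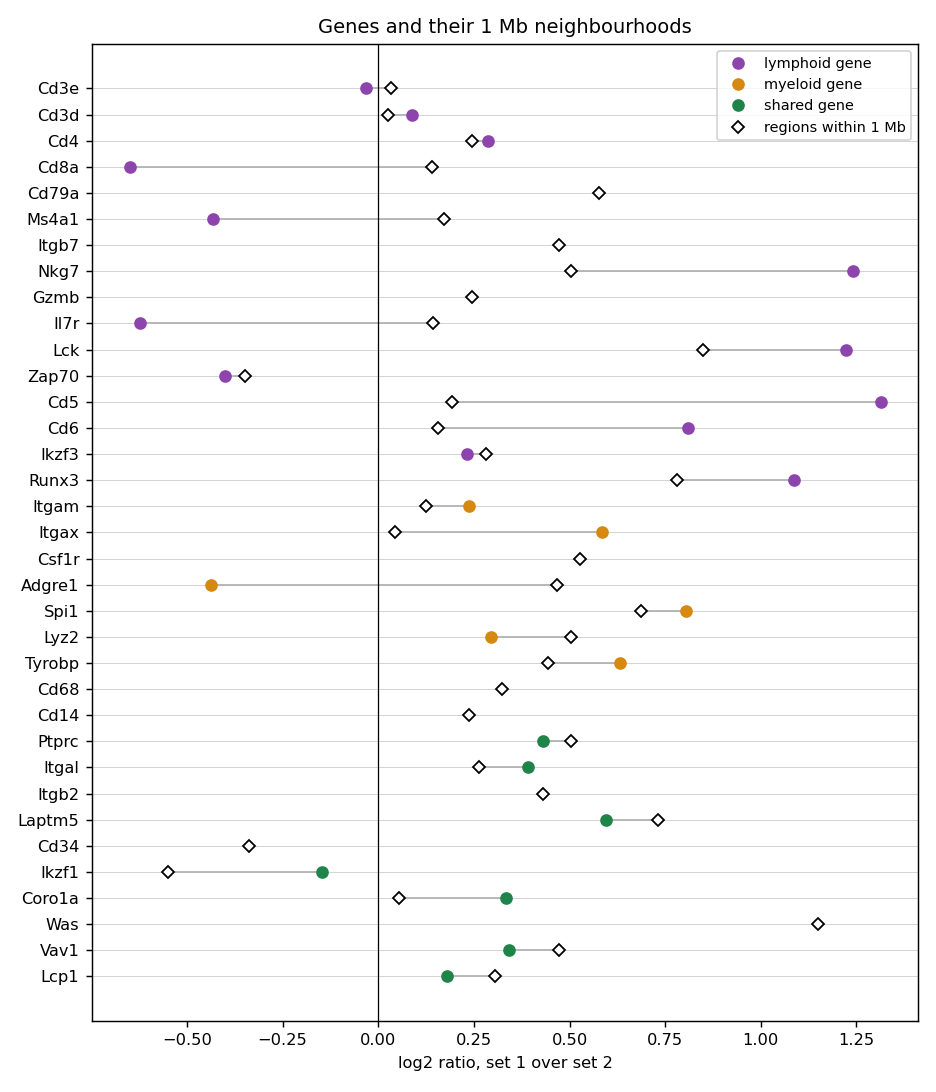
Log2 ratio of set 1 over set 2 (x axis) for each of the 35 genes (y axis), with filled circles for the gene's own summed regions, coloured by group, and diamonds for the other listed regions within 1 Mb. Circle and diamond lie on the same side of 0 at 21 of 26 genes, and Cd3e, Cd8a, Ms4a1, Il7r and Adgre1 have the circle to the left of 0 and the diamond to the right.

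Other blood cell genes, in 5 lists that hold none of the 35, carried listed regions at shares that differed between the lists. Over all named genes 32.3% carried a region. Of those, 59.6% were separated with set 1 higher and 22.0% with set 2 higher, at a median log2 ratio of 0.38. Of 20 other T and NK cell genes 13 had a region, with 6 separated towards set 1 and 3 towards set 2 and a median log2 ratio of 0.05. Cd28, the main costimulatory receptor of T cells, had 897, 913 and 889 against 293, 302 and 332, a ratio of 2.91, in a neighbourhood at -0.23. Of 16 other B cell genes 13 had a region, 10 separated towards set 1 and 0 towards set 2, with Pou2af1, a B cell coactivator, at 2.22-fold. Among 22 other myeloid genes 18 had a region, with 13 towards set 1 and 3 towards set 2, and Trem2, a macrophage receptor that signals through the Tyrobp product, had 299, 289 and 294 against 30, 32 and 30. That is a ratio of 9.49 (8.79 to 9.68 over pairs), beside 1.55 at Tyrobp itself. Among 20 other pan-leukocyte genes 10 had a region, 4 separated towards each set. The adaptor gene Lcp2 (SLP-76), a substrate of the Zap70 kinase, had 34 of 34 regions higher in set 2, with 2136, 2044 and 1766 against 3458, 4006 and 3609, a ratio of 1.86. Of 22 blood stem, erythroid and megakaryocyte genes 15 had a region, 13 towards set 1 and 1, the stem cell receptor gene Kit at 1.42-fold, towards set 2.

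Lists for other cell types are given beside them. Of 15 endothelial identity genes 10 carried a region, 7 separated towards set 1 and 2 towards set 2. The matching shares over all genes were 32.3%, 59.6% and 22.0%, the last 2 among genes with a region. Of 20 fibroblast matrix genes 1 did, and its values overlapped between the sets. These lists were set up with results of these data known, so their shares describe the table and lend the 35 genes no support.

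**Figure D5:**
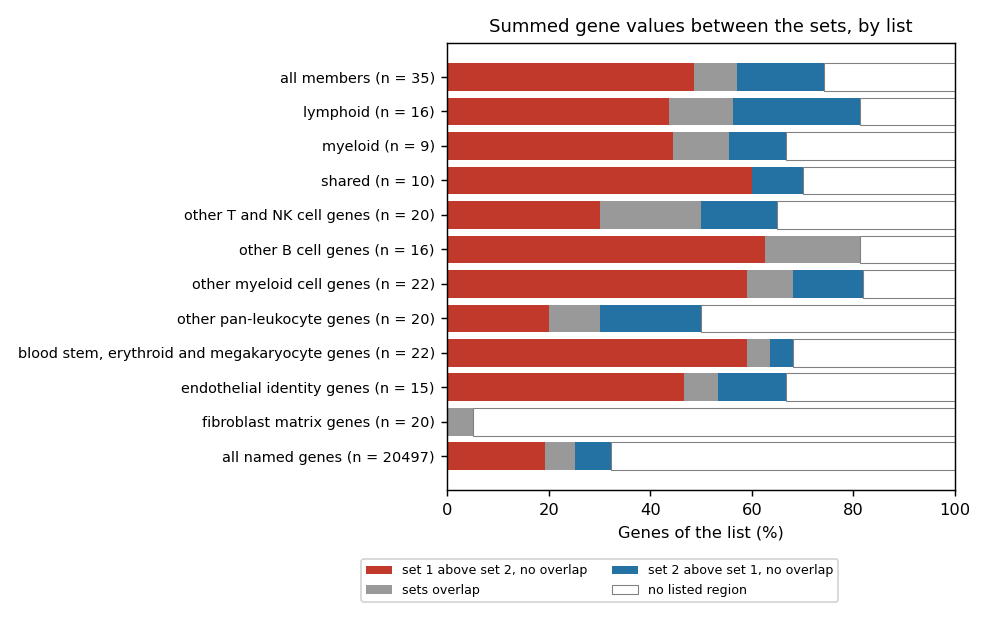
Share of the genes in each list (x axis, percent of the list) whose summed values were higher in set 1 without overlap, overlapped, were higher in set 2 without overlap, or had no listed region, for the 35 genes, their 3 groups, 7 other lists and all named genes (y axis). Listed regions are found at 26 of the 35 genes, 1 of 20 fibroblast matrix genes and 6611 of 20497 named genes.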

How the data were processed

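H3K27me3 chromatin immunoprecipitation and sequencing was done on 3 libraries per construct, with 1 input each. The tools named in the submitters' processing notes are CASAVA, Trimmomatic 0.36 and BWA 0.7.17, with the build GRCm38. No source used here gives how regions were called, how values were normalized or whether inputs entered. The authors deposited 1 table without a header. Its 6 values per region are whole numbers of unstated unit, were not treated as raw counts, and give no sequencing depth, so no interval or count model was used. The authors' p, at most 0.1, selected the regions and entered only as an alternative filter.

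Regions were joined to RefSeq gene spans of the same build plus 2 kb, and 35 of 35 genes matched. Values were summed per gene and library, and log2 ratios used a pseudocount of 1 on the summed values. Python 3.11.15, numpy 2.4.6, pandas 2.3.3 and matplotlib 3.10.9 were used, and the overlap and sum steps were tested on simulated data. All 35 genes are named; per gene, the region with the largest sum and the largest in the other direction were eligible. From the 7 other lists of 135 genes, up to 2 per direction were eligible, with separated sums of at least 300 in the higher set. Genes and lists were chosen with earlier results of these data known. The inputs were not analysed here.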

Additional observations from a re-analysis of the deposited data

How the results depend on the processing

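The median log2 ratio of the 26 genes, 0.314 as deposited, was 0.407 with regions at the authors' p under 0.05, 0.483 with p under 0.01, 0.12 with the sets rescaled to equal sums and 0.119 with each library rescaled. Regions higher in set 1 and in set 2 numbered 141 and 30 at p under 0.01 and 186 and 38 where only separated regions were kept. With regions of 500 bp or longer, 166 were higher in set 1, and 3 genes were separated with set 2 higher. Cd3d reversed to -0.069 at p under 0.01, to -0.107 with the sets rescaled and to -0.108 with the libraries rescaled, and Lcp1 to -0.016 under both rescalings. Without 1 library, the log2 ratio of Cd3e ran from -0.114 to 0.051, and the median of the 26 genes from 0.295 to 0.348. Each rescaling subtracts a near constant shift, and the filters leave fewer regions; any further cause was not tested. Nkg7 had no region without the flank, Il7r none at p under 0.05, and Nkg7, Il7r and Itgam none at p under 0.01 or from 500 bp. No paired analysis was possible because the values in the table carry no replicate numbers. Sequencing depth is unknown, and genes with small sums, such as Nkg7, Cd8a and Cd5, have wide ranges over library pairs.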
